A study of Mus musculus with 8 samples.

Results

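The caveolin and cavin genes measured here were Cav1, Cav2, Ptrf (now named Cavin1), Sdpr (Cavin2) and Prkcdbp (Cavin3). They were chosen by symbol, with earlier results of the same comparison known, and make up 5 of the 24346 gene symbols in the tables. All 5 were expressed above the filter, which kept the 11315 genes that reached a scaled FPKM of 1 in 3 or more libraries. The RNA came from the uterine epithelium of mice, as 5 libraries of Smad2/3 cKO and 3 libraries of control animals. The cKO mice carried Smad2flox/flox, Smad3flox/flox and Pgr-cre, with loxP sites around Smad2 exons 9 and 10 and around Smad3 exons 2 and 3, and a knock-in at the progesterone receptor locus drives Cre. SMAD2 and SMAD3 carry TGF-beta and activin signals to the nucleus. Pgr-cre is also active in the ovary, oviduct, mammary gland and pituitary, per the labels' protocols, and is not restricted to the epithelium of the uterus. The controls are labelled only as control, so which of these alleles they carried is not known. Both groups were on a mixed C57BL/6/129S6/SvEv background. Neither the animals' age nor their cycle stage, nor how the epithelium was separated, is given in the sources used here.

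Caveolae are flask-shaped pits of the plasma membrane, rich in cholesterol and sphingolipids. CAV1 and CAV2 are inserted in the membrane and form the inner coat, and CAV2 depends on CAV1 to reach the cell surface. The cavins are soluble proteins that assemble into an outer coat: cavin 1, from Ptrf, is required for the pits to form, while cavin 2, from Sdpr, and cavin 3, from Prkcdbp, join complexes built on cavin 1. Caveolae are abundant in endothelium, smooth muscle, adipocytes, fibroblasts and mesothelium, and the uterus holds several of these cell types beside its epithelium.

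In the cKO libraries Prkcdbp stood at a small part of its control level in every library, whereas Ptrf, Cav1, Cav2 and Sdpr had lower group means with values that overlapped those of the controls. All 5 log2 differences between cKO and control were negative. Their median was -0.68 on the log2(scaled FPKM + 1) scale, against -0.0050 over all 11315 genes tested. Markers of other uterine cells were lower as well. The median was -0.72 over the 11 tested stromal markers and -1.03 over the 9 tested muscle markers, all of them negative. Over the 10 epithelial markers it was 0.02, with 5 negative. At a Benjamini-Hochberg adjusted p below 0.05 in limma, fitted across all genes, 1 of the 5 was called, Prkcdbp, beside 6.98% of all tested genes called lower and 7.27% called higher, 14.3% in all. Likewise 1 of the 5 had every cKO library below every control, beside 12.9% of tested genes. Since the genes were chosen from this contrast, nothing is read from these counts and no p is given for the members. Each value is a gene-level FPKM, a number of fragments set relative to transcript length and library size, scaled between libraries, and group values are mean ± SD over 5 cKO and 3 control libraries.

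**Figure D1:**
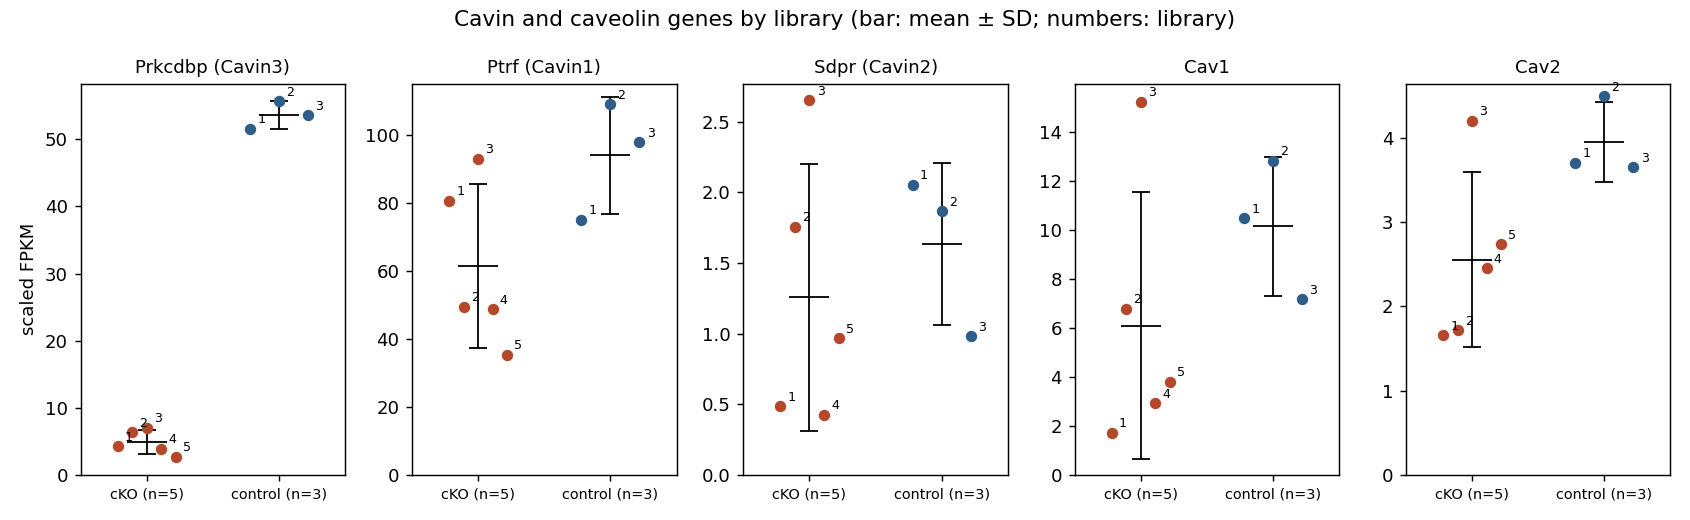
Scaled FPKM of the 5 genes in each of the 5 cKO and 3 control libraries, with a bar at each group mean and the SD. The Prkcdbp values of the cKO libraries, at 2.68 to 7.02, lie far below the 51.6 to 55.7 of the controls, while for the other 4 genes the ranges of the groups overlap.

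The sequences just upstream of the transcription starts are shown for Cav1 and Cav2, because Cav1 was measured as 2 transcripts with separate starts that varied between libraries and because Cav2 lies next to Cav1 on chromosome 6. The 2 Cav1 starts are 1305 bases apart, and 17204 bases separate the end of Cav2 from the upstream Cav1 start. Each line gives the 250 bases before a start on the plus strand, 5′ to 3′, from RefSeq on GRCm38.p6. Capitals mark CAGAC, the SMAD box with a leading C, or its reverse complement GTCTG. Of the 5 genes, 4 were matched among the RefSeq promoters. The gene without a match was Prkcdbp, so its upstream sequence was not examined. The windows are chr6:17306085-17306334 for the upstream Cav1 start, chr6:17307390-17307639 for the downstream Cav1 start and chr6:17280935-17281184 for Cav2.
Cav1 upstream start: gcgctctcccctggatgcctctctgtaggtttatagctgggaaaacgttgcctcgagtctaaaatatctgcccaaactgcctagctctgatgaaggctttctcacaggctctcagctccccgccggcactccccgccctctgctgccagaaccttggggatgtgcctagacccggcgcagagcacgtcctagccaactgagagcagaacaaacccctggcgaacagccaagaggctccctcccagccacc
Cav1 downstream start: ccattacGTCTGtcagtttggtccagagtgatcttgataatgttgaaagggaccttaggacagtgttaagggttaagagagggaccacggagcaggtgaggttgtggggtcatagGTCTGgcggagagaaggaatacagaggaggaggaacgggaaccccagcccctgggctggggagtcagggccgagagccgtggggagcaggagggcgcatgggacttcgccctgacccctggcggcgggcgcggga
Cav2: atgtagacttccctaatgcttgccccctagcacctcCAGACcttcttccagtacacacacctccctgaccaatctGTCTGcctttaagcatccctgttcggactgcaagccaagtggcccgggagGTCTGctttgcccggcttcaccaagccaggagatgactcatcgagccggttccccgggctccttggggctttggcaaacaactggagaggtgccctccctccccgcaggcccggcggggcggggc
On both strands the motif was found 0 times before the upstream Cav1 start, 2 times before the downstream start and 3 times before Cav2. It was found 0 times in the windows of Ptrf and Sdpr. At least 1 match occurs in 42.2% of 32817 RefSeq promoters of the same length, so a match is common. The longer palindrome GTCTAGAC, in 0.168% of promoters, was in none of these windows. These letters are a description of the windows and were not tested for binding.

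Prkcdbp (chromosome 7, 105480616 to 105482197, mm10, 1 transcript of 1026 bases) encodes cavin 3, which binds protein kinase C delta. Its scaled FPKM was 4.24, 6.38, 7.02, 3.91 and 2.68 in cKO 1 to 5, against 51.6, 55.7 and 53.6 in controls 1 to 3. Every cKO library lay far below every control, and the controls differed among themselves by no more than 1.08-fold. The means were 4.85 ± 1.81 in cKO and 53.6 ± 2.02 in control, so the cKO mean was 9.04% of the control mean. The log2 difference was -3.28 ± 0.24 (SE of the limma fit). An estimated 118 to 295 fragments lay behind each cKO value and 2413 to 2884 behind each control value. The highest upper bound of the deposited 95% FPKM intervals in cKO was 8.33, where the lowest lower bound in control was 48.8. Among genes measured above 0, ranked by level per length, Prkcdbp stood at 6796 to 9257 in cKO libraries and at 1003 to 1156 in controls. The log2 difference lay between -3.63 and -3.13 in the 17 other settings tried.

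Ptrf (chromosome 11, 100956736 to 100970617, 1 transcript of 3218 bases) encodes cavin 1, the cavin without which caveolae do not form, and it was the most abundant of the 5 genes per length in every library. Its scaled FPKM was 80.7, 49.4, 92.9, 48.6 and 35.4 in cKO 1 to 5, against 75.0, 109 and 97.7 in controls 1 to 3. In cKO 1 and cKO 3 it lay within the control range, and in the other 3 cKO libraries it lay below the lowest control. The means were 61.4 ± 24.2 in cKO and 93.9 ± 17.3 in control, a log2 difference of -0.68 ± 0.30. The gene was deeply covered, by an estimated 5474 to 13642 fragments in cKO and 12107 to 19511 in control.

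Sdpr (chromosome 1, 51289126 to 51302960, 1 transcript of 3055 bases) encodes cavin 2, which binds phosphatidylserine and helps to bend the membrane. It was low in both groups, at 0.484, 1.76, 2.65, 0.426 and 0.967 scaled FPKM in cKO 1 to 5 and 2.05, 1.86 and 0.983 in controls 1 to 3. The groups overlapped on both sides: 3 cKO libraries lay below the lowest control, 1 within the control range and 1 above the highest control. The means were 1.26 ± 0.944 in cKO and 1.63 ± 0.571 in control. The log2 difference of -0.29 ± 0.32 was smaller than its error. Between 67 and 376 fragments were estimated behind each cKO value and between 170 and 320 behind each control value.

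The cavins differed in their mix as well as in their sum. Prkcdbp made up 7.43% ± 2.24 of the summed cavin FPKM in cKO, with a range of 4.97% to 11.1%, against 36.2% ± 3.47 in control, with a range of 33.4% to 40.1%. Ptrf made up 90.7% ± 3.12 in cKO and 62.6% ± 3.82 in control. For each Prkcdbp transcript there were on average 13.1 of Ptrf in cKO, between 7.74 and 19.0 by library, and 1.75 in control, between 1.45 and 1.96, per length. The cavin sum was 67.5 ± 25.9 scaled FPKM in cKO and 149 ± 19.1 in control. These shares come from the same contrast that chose the genes and are a description.

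The order of the levels differed between libraries. In all 3 controls it was Ptrf, Prkcdbp, Cav1, Cav2 and Sdpr from high to low, and the ranges of neighbours in that order did not overlap. In cKO only Ptrf stood clear of the rest, with its lowest value of 35.4 above every value of the other genes. Among the other 4, the ranges of Prkcdbp (2.68 to 7.02) and Sdpr (0.426 to 2.65) did not overlap, and those of every other pair did. Cav1 was above Prkcdbp in cKO 2, cKO 3 and cKO 5. The ratio of Prkcdbp to Cav1 was 1.18 ± 0.786 in cKO and 5.58 ± 1.67 in control.

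Cav1 (chromosome 6, 17306335 to 17341328) encodes the caveolin that drives formation of caveolae outside striated muscle. Its scaled FPKM was 1.72, 6.78, 15.2, 2.93 and 3.81 in cKO 1 to 5, against 10.5, 12.8 and 7.17 in controls 1 to 3. In 4 cKO libraries it was below the lowest control, and in cKO 3 it was above the highest. The cKO libraries spanned an 8.85-fold range, the widest of the 5 genes, where the controls spanned 1.79-fold. The means were 6.09 ± 5.44 in cKO and 10.2 ± 2.84 in control, a log2 difference of -0.91 ± 0.51. Without cKO 3 the log2 difference was -1.29 ± 0.34.

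The Cav1 signal came from 2 RefSeq transcripts, whose upstream windows are printed above. The one from the upstream start (NM_007616, 2526 bases) carried most of it in every library, at 1.72, 4.05, 9.36, 2.12 and 3.31 scaled FPKM in cKO 1 to 5 and 8.65, 8.51 and 5.40 in controls 1 to 3. As for the whole gene, cKO 3 was above the highest control and the other 4 cKO libraries were below the lowest. The one from the downstream start (NM_001243064, 2622 bases) was listed at 0 in cKO 1, and stood at 2.72, 5.88, 0.805 and 0.500 in cKO 2 to 5 and at 1.82, 4.31 and 1.77 in controls 1 to 3. Its share of Cav1 was 0%, 40.2%, 38.6%, 27.5% and 13.1% in cKO 1 to 5 and 17.4%, 33.6% and 24.7% in controls 1 to 3. The shares overlapped between groups, and those of cKO libraries were the more spread. The transcripts end at the same base and overlap, so reads had to be divided between them, and an exact 0 can be a failed estimate.

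**Figure D2:**
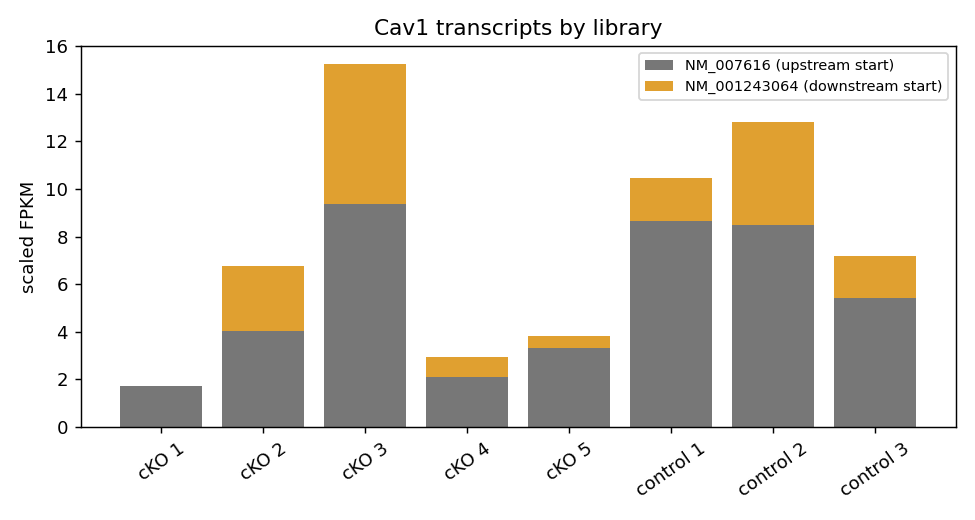
Scaled FPKM of the upstream-start and downstream-start Cav1 transcripts in each library, stacked so that the bar's height is the level of the gene. The downstream-start transcript is listed at 0 in cKO 1 and reaches 5.88 in cKO 3, which also has the highest upstream-start value, 9.36.

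Cav2 (chromosome 6, 17281185 to 17289130) encodes the partner that joins CAV1 in mixed oligomers. Its scaled FPKM was 1.66, 1.71, 4.20, 2.45 and 2.74 in cKO 1 to 5, against 3.71, 4.49 and 3.65 in controls 1 to 3. As for Cav1, 4 cKO libraries lay below the lowest control, while cKO 3 lay within the control range. The means were 2.55 ± 1.03 in cKO and 3.95 ± 0.472 in control, a log2 difference of -0.52 ± 0.22 and of -0.67 ± 0.15 without cKO 3. All of the signal was assigned to 1 transcript of 2748 bases, and a shorter one of 1116 bases was listed at 0 in every library. The ratio of Cav1 to Cav2 was 2.24 ± 1.43 in cKO and 2.55 ± 0.506 in control. It was 3.96 and 3.63 in cKO 2 and cKO 3 and between 1.04 and 1.39 in the other 3 cKO libraries. Without cKO 3, Cav1, Cav2 and Prkcdbp were called lower, 3 of the 5 genes, beside 892 of 11166 tested genes called lower. In either direction 16.4% of tested genes were called without cKO 3. With all libraries and in every other setting, 1 member was called lower. Among the cKO libraries cKO 3 held the highest Cav1 and Cav2 values, and again nothing is read from the count. The stromal markers moved as well when cKO 3 was left out: 3 of 11 were called lower (7 at an unadjusted p below 0.05), against 1 of 11 with all libraries. The difference in their mean log2 level was then -0.82 (exact permutation test, p = 0.0286 before adjustment over the marker lists). That p is the lowest the test allows without cKO 3, the cKO library with the highest stromal level. With all libraries the difference was -0.61 (exact permutation test, p = 0.125). The part of the stromal markers in the Cav1 and Cav2 values was not tested.

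The Smad2 and Smad3 levels are a check of the labels. Smad2 was lower in cKO, at 3.58 ± 0.378 scaled FPKM against 6.07 ± 0.342 in control (limma with Benjamini-Hochberg adjustment, adjusted p = 0.00551), and the groups did not overlap. Smad3 was at 30.7 ± 8.97 in cKO and 28.2 ± 3.07 in control (limma adjusted p = 0.837). The gene-level values include exons outside the deleted segments. Epithelial markers were abundant in both groups: the 10 markers summed to 3799 to 6588 scaled FPKM in cKO and 4975 to 5418 in control, with Epcam at 378 to 523 in cKO and 464 to 488 in control. Estimated depth was 44.3 to 55.2 M mapped fragments in cKO and 52.6 to 55.6 M in control, the lowest in cKO 3.

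Markers of other cells that carry caveolae varied between the same libraries. In bulk RNA, fewer cells of a type and less RNA per cell cannot be told apart. The 6 mesothelial markers, of which 5 passed the filter, summed to 2.98 to 52.0 scaled FPKM in cKO and 14.6 to 33.8 in control. Their mean log2 level was 0.52, 1.90, 2.85, 0.92 and 0.97 in cKO 1 to 5, against 1.60, 2.31 and 1.58 in controls 1 to 3. Among the cKO libraries the order was cKO 3, 2, 5, 4 and 1 from high to low. Cav1 had the same order, and so did Sdpr save that cKO 4 and cKO 1 changed places. The order was cKO 3, 2, 1, 4 and 5 for Prkcdbp, cKO 3, 1, 2, 4 and 5 for Ptrf and cKO 3, 5, 4, 2 and 1 for Cav2. Neither defining marker, Upk3b or Lrrn4, was at 0 in any library, and Lrrn4 ranged between 0.0330 and 4.15 in cKO and 1.02 and 2.24 in control.

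The 14 stromal markers (11 passed) summed to 167 to 362 scaled FPKM in cKO and 257 to 461 in control, and their mean log2 level was 2.83 ± 0.493 in cKO and 3.44 ± 0.490 in control. It was highest among cKO libraries in cKO 3, at 3.66, followed by 2.87, 2.60, 2.59 and 2.42 in cKO 2, 1, 5 and 4. Prkcdbp had the same order save that cKO 5 and cKO 4 changed places. The 12 muscle markers (9 passed) summed to 18.6 to 135 in cKO and 69.0 to 398 in control, with control 1 the highest and cKO 2 the lowest. The 12 endothelial markers (6 passed) were low, summing to 8.34 to 16.9 in cKO and 14.0 to 24.2 in control, and their defining markers did not move together. Pecam1 was at 0.733 to 1.61 in cKO and 1.02 to 2.38 in control, Cdh5 was higher on average in cKO, at 1.55 ± 0.385 against 0.988 ± 0.450 in control (limma adjusted p = 0.187), and Kdr was at 0.357 ± 0.153 in cKO and 0.356 ± 0.113 in control. The VEGF receptor gene Flt1 was the 1 endothelial marker called, at 4.46 ± 0.857 in cKO and 7.93 ± 1.91 in control (log2 difference -0.70, limma adjusted p = 0.0368), a call lost in 8 of 17 other settings. The 6 pericyte markers (1 passed) summed to 2.86 to 5.43 in cKO and 4.25 to 11.7 in control, and none of the stromal, muscle, endothelial or pericyte defining markers was at 0. Of the 6 adipocyte markers (2 passed), the defining Adipoq and Plin1 were listed at 0 in all 5 cKO libraries and in 2 of 3 controls. By an exact permutation test, two-sided, in which the 56 possible assignments of the libraries allow no p below 0.0179, the stromal difference of -0.61 had p = 0.125, the muscle difference of -0.83 p = 0.304 (-0.25 without control 1), the mesothelial difference of -0.40 p = 0.482 (-0.16 without control 2, -0.17 without cKO 1 and -0.75 without cKO 3) and the endothelial difference of -0.13 p = 0.464. After Benjamini-Hochberg adjustment over 8 marker lists the lowest of the 8 was 0.429. It belonged to the adipocyte list, which was higher in cKO (difference 0.36, exact permutation test, p = 0.0536). The adjusted value of the stromal list was 0.5.

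**Figure D3:**
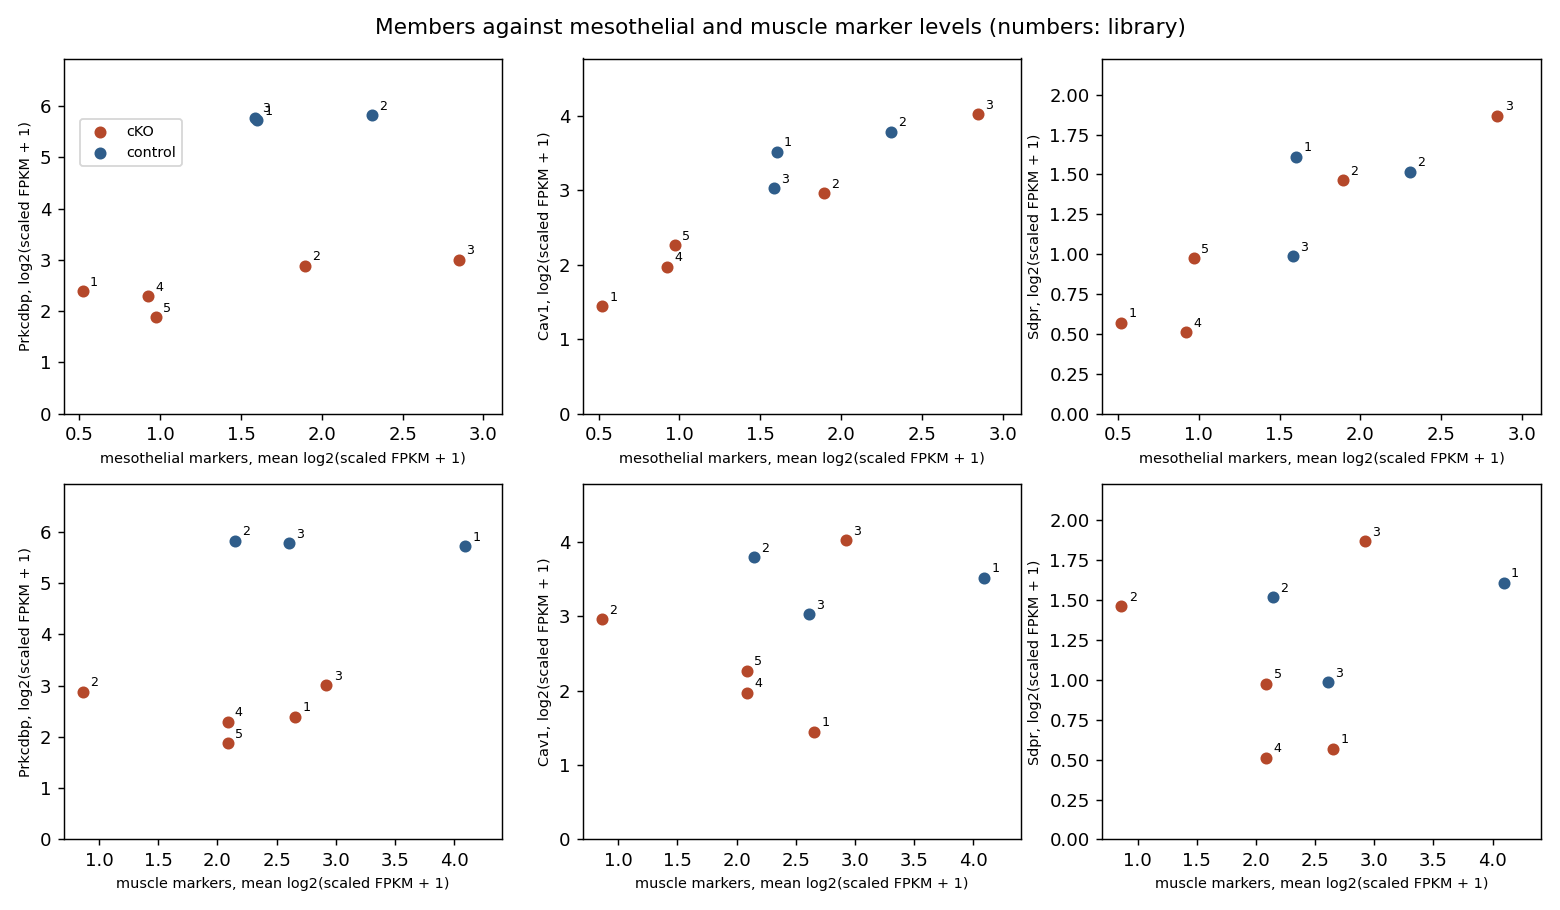
Log2(scaled FPKM + 1) of Prkcdbp, Cav1 and Sdpr against the mean log2 level of the mesothelial markers (upper row) and the muscle markers (lower row), 1 numbered point per library. Prkcdbp forms a cKO and a control band over the marker levels of these libraries, and within the cKO band it is highest in cKO 3. Cav1 and Sdpr in cKO 3 stand level with or above the controls at the highest mesothelial level, 2.85.

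The fits were repeated with marker levels of the same libraries as a term. With the mean level of stromal and muscle markers as a term, the log2 difference was -3.19 ± 0.30 for Prkcdbp and -0.50 ± 0.37 for Ptrf. In the same fit it was -0.55 ± 0.61 for Cav1, -0.34 ± 0.25 for Cav2 and -0.03 ± 0.38 for Sdpr. A term for the mesothelial level, chosen after seeing the data, gave -3.13 ± 0.17 for Prkcdbp, -0.57 ± 0.30 for Ptrf, -0.50 ± 0.15 for Cav1, -0.41 ± 0.19 for Cav2 and -0.07 ± 0.19 for Sdpr. Every sign was kept, and each difference was closer to 0 with either term than without, those of Cav1 and Sdpr the most in proportion. The part of these cells in the Prkcdbp, Cav1, Cav2, Ptrf and Sdpr differences was not tested beyond these fits.

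By their titles, cKO 1 and cKO 2 come from a separate run of numbers, which may or may not mark a batch. Among the other 6 libraries alone the log2 difference was -3.38 ± 0.27 for Prkcdbp, -0.76 ± 0.35 for Ptrf, -0.69 ± 0.54 for Cav1, -0.28 ± 0.18 for Cav2 and -0.25 ± 0.36 for Sdpr. The Cav2 difference was the one that shrank most, since cKO 1 and cKO 2 held its 2 lowest values. As TPM, which moves the median of all genes by about -0.20, the differences were -3.63, -0.89, -1.21, -0.80 and -0.59 in the same order.

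**Figure D4:**
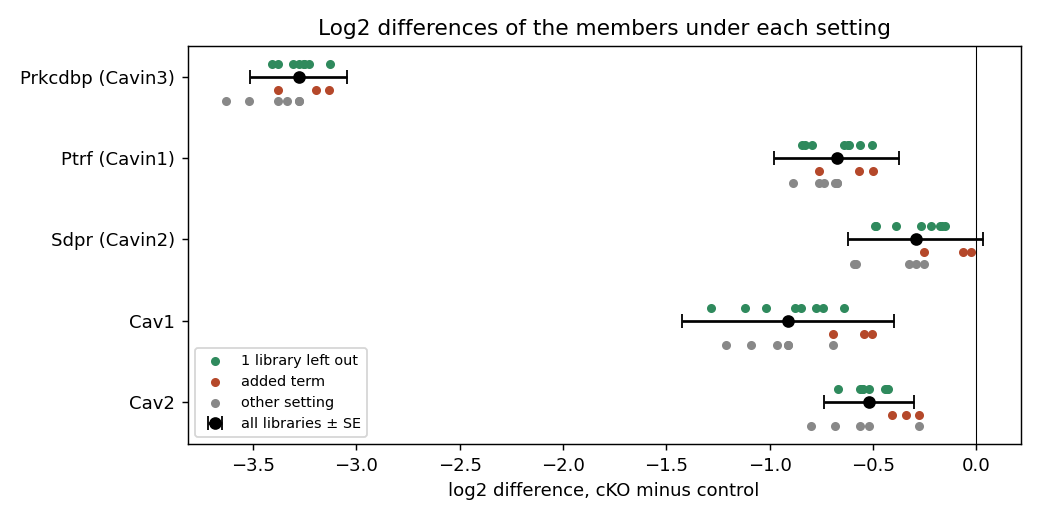
Log2 difference, cKO minus control, of each of the 5 genes under every setting tried. The black point with its SE is the fit to all libraries, green points leave out 1 library, red points add a term and grey points are other settings. All points lie below 0, Prkcdbp between -3.63 and -3.13, while Sdpr comes as near to 0 as -0.03.

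Genes whose pattern over the 8 libraries was most like that of each member were found among 7447 genes with a mean scaled FPKM of at least 5, by Pearson's r of log2 levels. These r values pool the groups and are a description. For Prkcdbp they were Naip1 (r = 0.992), the Polycomb-related gene L3mbtl3 (0.991) and Rph3al (0.990), an effector of Rab GTPases in secretion. Naip1 stood at 15.0 to 21.9 scaled FPKM in cKO and 40.7 to 44.6 in control, so it too showed a cKO and a control band. For Cav1 they were Igfbp6 (0.990), which encodes a binding protein of insulin-like growth factors, the collagen-processing gene Pcolce (0.987) and the intermediate filament gene Vim (0.954), a stromal marker here. Igfbp6 was 3.58, 13.6, 33.3, 4.25 and 5.93 in cKO 1 to 5 and 24.1, 31.9 and 15.4 in controls 1 to 3, again highest in cKO 3. For Sdpr they were the stromal marker Dcn (0.947), St6galnac2 (0.940) and the collagen chaperone gene Serpinh1 (0.928). For Cav2 they were Atxn1l (0.985), Ubr7 (0.970) and the RNA polymerase II subunit gene Polr2b (0.969), and for Ptrf the stress granule gene G3bp1 (0.989), Rpf1 (0.972) and Acot7 (0.969). No gene was among the 3 most like genes of more than 1 member.

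Of 15 other genes of caveolae, 10 passed the filter, of which 2 were called lower in cKO and 0 higher (limma, Benjamini-Hochberg adjusted p below 0.05; 3 and 1 at an unadjusted p below 0.05), beside 6.98% of all tested genes lower and 7.27% higher. Their median log2 difference was -0.20, against -0.0050 over all genes. Ehd2, the ATPase that holds caveolae at the surface from their neck, was 8.81, 5.17, 6.43, 4.11 and 2.97 scaled FPKM in cKO 1 to 5, against 18.7, 14.0 and 10.1 in controls 1 to 3. All cKO libraries lay below all controls, with means of 5.50 ± 2.25 in cKO and 14.3 ± 4.33 in control. Its log2 difference was -1.26 ± 0.29 (limma adjusted p = 0.0246). The call was lost in 5 of 17 other settings: without each control in turn, with no filter, and with the stromal and muscle term, where the difference was -0.94 (limma adjusted p = 0.118).

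Abl1, a tyrosine kinase, was 9.59 ± 1.08 in cKO and 14.3 ± 0.594 in control, a log2 difference of -0.54 ± 0.10 (limma adjusted p = 0.0121), with no overlap. Its call was lost without control 2, without control 3 and with the stromal and muscle term. The 4 most abundant partner genes did not pass. The dynamin gene Dnm2, whose product severs vesicle necks, was at 57.4 ± 6.26 in cKO and 50.3 ± 5.21 in control (limma adjusted p = 0.294), and Ehd1, an EHD ATPase of recycling endosomes, was at 52.9 ± 6.77 in cKO and 47.9 ± 2.43 in control (0.455), both with a negative difference as TPM. Ehd4, another EHD ATPase, stood at 26.4 to 39.6 in cKO and 12.6 to 25.2 in control, with no overlap, but missed the threshold (log2 difference 0.74 ± 0.21, limma adjusted p = 0.0513). It was called higher in 2 other settings, with the filter at FPKM 5 and without control 1. Src, the kinase that phosphorylates CAV1, was at 20.4 ± 2.39 in cKO and 25.5 ± 0.483 in control (limma adjusted p = 0.0852), also with no overlap.

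The muscle forms were below the filter: Cav3 was at 0.0113 ± 0.0104 in cKO and 0.0291 ± 0.0109 in control, and Murc, the muscle cavin now named Cavin4, at 0.777 ± 0.184 in cKO and 0.724 ± 0.169 in control. The endothelial nitric oxide synthase gene Nos3 was listed at 0 in all 8 libraries. Pacsin1 and Ror1 did not pass the filter either, and these 5 genes are named to account for the list after their values were seen.

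Genes of other membrane domains and coats were measured alongside. Of 10 flotillin and raft genes, all of which passed the filter, 3 were called higher and 1 lower, beside 7.27% and 6.98% of all tested genes, with a median log2 difference of 0.40 (0.21 as TPM). Flot2, which forms flotillin domains separate from caveolae, was 11.0, 10.3, 22.9, 15.4 and 16.2 in cKO 1 to 5, against 9.10, 6.05 and 4.90 in controls 1 to 3. Every cKO library was above every control, and the log2 difference was 1.06 ± 0.26 (limma adjusted p = 0.0319). Stom, which encodes the raft protein stomatin, was at 110 ± 35.3 in cKO and 50.6 ± 15.3 in control (log2 difference 1.09 ± 0.27, limma adjusted p = 0.0295). Mal2, a raft protein of apical transport in epithelial cells, was at 204 ± 46.2 in cKO and 113 ± 10.8 in control (0.82 ± 0.18, limma adjusted p = 0.0217). Stoml1, a stomatin relative, was the lower one, at 4.17 ± 0.344 in cKO and 7.57 ± 1.10 in control (-0.72 ± 0.11, limma adjusted p = 0.00454). The calls of Flot2, Stom and Mal2 were lost in 7, 7 and 4 of 17 other settings, among them without control 2 and without control 3, and that of Stoml1 in 0.

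Of 12 clathrin coat genes, 11 were measured and 10 passed the filter, and 2 were called higher and 0 lower in cKO by limma (3 and 0 at an unadjusted p below 0.05), beside the same 7.27% and 6.98% of all genes. Their median log2 difference was 0.12 and changed sign as TPM, to -0.08. Cltb, the clathrin light chain B gene, was 26.6, 27.4, 26.1, 27.6 and 32.7 in cKO 1 to 5, against 17.1, 14.5 and 11.2 in controls 1 to 3. All cKO libraries lay above all controls, with a log2 difference of 0.94 ± 0.14 (limma adjusted p = 0.00403) that stayed past the threshold in all 17 other settings. Ap2m1, which encodes the cargo-binding subunit of the AP-2 adaptor, was at 43.8 ± 4.03 in cKO and 31.4 ± 3.86 in control (0.47 ± 0.11, limma adjusted p = 0.0258). The Ap2m1 call was lost in 6 settings, among them TPM and the fit without cKO 1 and cKO 2.

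**Figure D5:**
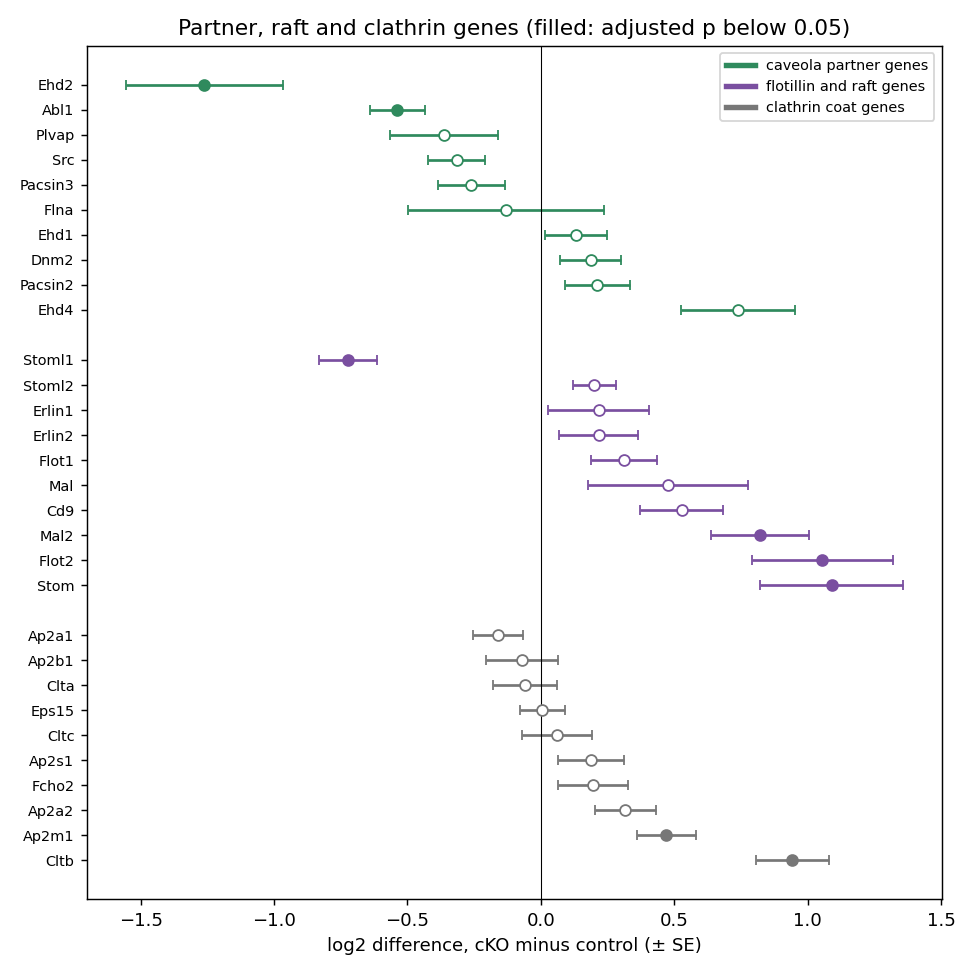
Log2 difference, cKO minus control, with the SE of the limma fit, of the caveola partner, flotillin and raft, and clathrin coat genes that passed the filter, with filled points for those called at an adjusted p below 0.05. Ehd2 at -1.26 lies at one end, and Flot2 and Stom, at 1.06 and 1.09, at the other.

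The genes beside the members on their chromosomes were taken as the 2 nearest tested genes on each side, 16 in all. Of these, 6 were called lower and 0 higher (limma adjusted p below 0.05; 6 and 0 at an unadjusted p below 0.05), beside 6.98% and 7.27% of all tested genes, with a median log2 difference of -0.30. Those 6 include Mdfic, which passed the filter only through the controls and so had to differ; leaving it aside, 5 of 15 were called lower. Smpd1, Apbb1 and Met are named after their values were seen, to set uncalled neighbours beside the called ones. On the side of Prkcdbp with lower coordinates, Fam160a2, 80562 bases away, was at 2.61 ± 0.376 in cKO and 4.17 ± 0.335 in control (-0.52 ± 0.11, limma adjusted p = 0.0199). On its other side, Smpd1, the acid sphingomyelinase gene 72163 bases away, was at 17.4 ± 4.73 in cKO and 20.9 ± 3.23 in control and did not pass (limma adjusted p = 0.395), nor did Apbb1 (0.191). The 4 neighbours of Prkcdbp had log2 differences between -0.52 and 0.47, against -3.28 for Prkcdbp.

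On the Cav2 side of the caveolin pair, Tes, which encodes a focal adhesion protein and lies 175360 bases from Cav2, was at 41.4 ± 5.17 in cKO and 63.8 ± 7.78 in control (-0.62 ± 0.13, limma adjusted p = 0.0164). Mdfic, an inhibitor of MyoD-family factors 1479016 bases from Cav2, was at 0.456 ± 0.120 in cKO and 3.03 ± 0.380 in control, a log2 difference of -1.47 given as a description, and it drops out of the test when any control is left out. On the Cav1 side the receptor tyrosine kinase gene Met did not pass, at 29.1 ± 3.59 in cKO and 28.3 ± 3.35 in control (limma adjusted p = 0.878). Next to Ptrf, the proton pump subunit gene Atp6v0a1, 38835 bases away, was at 25.8 ± 2.14 in cKO and 45.7 ± 4.97 in control (-0.80 ± 0.10, limma adjusted p = 0.00263). Beside Sdpr, Nabp1, 166528 bases away, was at 9.88 ± 0.738 in cKO and 16.1 ± 0.631 in control (limma adjusted p = 0.0027), and the iron exporter gene Slc40a1, 5363532 bases away, was at 71.4 ± 18.1 in cKO and 219 ± 20.9 in control (limma adjusted p = 0.00329). In 7 of 16 neighbours, the 6 called ones and Capza2, every cKO library was below every control, beside 12.9% of tested genes. Mdfic is among these 7 and had to differ, since it passed the filter only through the controls. The others were Tes, Fam160a2, Atp6v0a1, Nabp1, Slc40a1 and Capza2. The calls of Tes and Fam160a2 were lost in 3 of 17 and 4 of 16 other settings, among them without control 1, without control 2 and with the stromal and muscle term.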

How the data were processed

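RNA of uterine epithelium from 5 Smad2/3 cKO and 3 control libraries was made into cDNA with random and poly-dT primers and sequenced on a HiSeq 2500, per the labels' protocols. The submitters' processing notes name bcl2fastq 1.8.3, TopHat, Cufflinks and mm10, and the rest (other versions, the annotation, strand) is not given in the sources used here. Deposited FPKM values, made by the authors in each library separately, come with 95% intervals for each of 34535 transcripts, per the file headers. A coverage signal, also deposited, was not used for the values given here. No counts were used, and mapped fragments per library were estimated from the FPKM intervals.

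FPKM was summed per symbol, and 15 genes with a status other than OK were left out. Scaling to a common level used each library's median ratio to the genes' geometric means (factors 0.924 to 1.06). Genes that reached a scaled FPKM of 1 in 3 or more libraries entered limma 3.58.1 (R 4.3.3) as log2(scaled FPKM + 1), fitted with a trended variance and Benjamini-Hochberg adjustment over all 11315. This scale understates changes of low genes. The 8 marker lists were compared by exact permutation. The labels do not say that libraries came from separate animals, so each p-value reflects only how much these libraries vary, which can be technical.

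The members and gene lists were chosen with earlier results of these data known. The text names the members, for each the 3 tested genes with the highest r, and the called and the 4 most abundant partner genes. It also names Smad2, Smad3 and the called genes of the raft, clathrin and neighbouring lists. Only some defining markers are named, and the rest enter through the sums and mean levels of their lists. Other named genes, save for a few such as Flt1 and Capza2, are said to be outside the rule or to account for a list. Alternatives were no scaling, TPM, a pseudocount of 0.1, no filter, a filter at FPKM 5, leaving out each library or cKO 1 and cKO 2 together, and terms for the title series, for the stromal and muscle level and, added after seeing the data, for the mesothelial level. Emr1 and Picalm were not used here. Promoter windows were read from RefSeq sequences of GRCm38.p6, on which the deposited starts, written 1-based, were the RefSeq starts.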

Additional observations from a re-analysis of the deposited data

Results flagged for a closer look

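Among 48 gene and marker values in the 5 cKO libraries, 2 had 1 library far from the other 4, by Dixon's 95% critical value. The clathrin light chain gene Cltb stood at 32.7 scaled FPKM in cKO 5, above the 26.1 to 27.6 of the other cKO libraries and 11.2 to 17.1 in the controls. The endothelial marker Flt1 stood at 2.96 in cKO 4, below the 4.68 to 5.09 of the other cKO libraries and 5.83 to 9.54 in the controls. Chance alone gives about 5% of groups such a library.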

How the results depend on the processing

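Every log2 difference of the 5 genes kept its negative sign and moved by less than the spread between libraries, in 17 of 17 settings for Prkcdbp, Ptrf and Cav1 and in 16 of 16 for Cav2 and Sdpr, which do not pass a filter at FPKM 5. For Sdpr that spread, an SD of 0.51, exceeds the difference of -0.29, and for Cav1 it is 0.84 beside -0.91. The spread is thus a loose limit for these genes, whose differences shrank to -0.03 and -0.50 in some settings. With 1 library left out, the range was -3.41 to -3.13 for Prkcdbp, -0.85 to -0.50 for Ptrf, -0.49 to -0.15 for Sdpr, -1.29 to -0.64 for Cav1 and -0.67 to -0.43 for Cav2. Of all genes, 1613 were called. Without 1 library the count was 419 to 1827, with 1015, 424 and 419 without controls 1, 2 and 3, and with the stromal and muscle term it was 659. As TPM, 23.5% of calls were higher in cKO, and 43.3% without scaling, in place of 51.0%. The 2 partner calls became 4 as TPM, 3 with the title term, 3 (Ehd4 added) with the filter at FPKM 5, 1 with no filter, 0 with the stromal and muscle term and 0 to 2 without 1 library. The 4 raft calls became 2 with no filter, 2 with the title series as a term, 2 with the stromal and muscle term and 1 to 5 without 1 library. The 2 clathrin calls became 1 as TPM, 1 without cKO 1 and cKO 2, 1 with the title term, 1 with the stromal and muscle term and 1 to 2 without 1 library. The 6 neighbour calls became 3 to 6 without 1 library, with 15 neighbours tested where a control was left out, since Mdfic then falls below the filter, and 4 with the filter at FPKM 5 (13 tested) or the stromal and muscle term. With fewer libraries tests lose power; otherwise the cause was not tested. The stromal marker difference was -0.82 to -0.33 without 1 library (-0.33 without control 1), the muscle one -1.23 to -0.25 (-0.25 without control 1), the mesothelial one -0.75 to -0.16 (-0.16 without control 2) and the epithelial one -0.14 to 0.0317, the last without cKO 4. No paired analysis was possible because the labels give no replicate numbers or pairing of cKO and control libraries. Depth limits Sdpr most, with as few as 67 estimated fragments in a library.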

Other observations

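Of the fat cell markers, Fabp4, a fatty acid carrier gene that macrophages and capillary endothelium also express, was 16.7, 9.51, 0.428, 2.67 and 20.5 scaled FPKM in cKO 1 to 5, against 1.16, 0.315 and 0.313 in controls 1 to 3. It was above every control in 4 of 5 cKO libraries and did not pass (limma adjusted p = 0.106), while the defining Adipoq and Plin1 were listed at 0 in all cKO libraries. The 9 measured leukocyte markers summed to 77.5 to 172 in cKO and 111 to 146 in control. Ptprc, which marks all leukocytes, was at 5.97 ± 3.07 in cKO and 2.03 ± 0.702 in control with no overlap (limma adjusted p = 0.0615). Csf1r, the other defining leukocyte marker, overlapped between groups, at 2.29 ± 1.08 in cKO and 2.13 ± 0.663 in control (limma adjusted p = 0.966). Laptm5, a lysosomal gene of blood cells, was lower at 6.71 ± 2.85 in cKO and 14.0 ± 2.88 in control (limma adjusted p = 0.0436, lost in 9 of 17 other settings). Fabp4 and Laptm5 were singled out after their values were seen.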
